A study of Mus musculus with 52 samples.

Results

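Cytosolic ribosomal protein genes were followed through 3 RNA-seq tables of mouse brain. Members were chosen by symbol alone: protein-coding genes named Rpl or Rps with a number, plus Rpsa, Rplp0, Rplp1 and Rplp2, leaving out the S6 kinases and pseudogenes. The rule gave 83 genes of the 48526 gene identifiers in each table: 31 of the small subunit, 43 of the large subunit, 3 of the stalk and 6 paralogs. Of these, 80 had enough reads to be tested in every table. The other 3 were paralogs at the floor: Rpl10l had 0 reads in all 52 libraries, Rpl39l at most 1 read in a library, and Rpl3l at most 6.

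Cytosolic ribosomes are built from a small subunit, which decodes the messenger RNA, and a large subunit, which joins amino acids, each a scaffold of ribosomal RNA covered by proteins. Nearly every one of these proteins is present as a copy per ribosome, so their genes are expressed together at high levels in growing and dividing cells. Their messenger RNAs typically start with a run of pyrimidines, the terminal oligopyrimidine tract, through which mTOR signalling controls their translation.

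Mice with a miR-146a knockout (KO; gene Mir146) were set against wild-type mice (WT), with no treatment in either, and neither strain nor the deleted allele is described in the labels. At embryonic day 14 (E14) the whole cortex was sampled from 5 KO and 4 WT animals. At postnatal day 30 (P30) amygdala, frontal cortex and hippocampus were each sampled in 4 KO and 4 WT. At postnatal day 60 (P60) the same regions had 4, 4 and 2 KO and 3, 3 and 3 WT libraries. The design text names another age and another cortical area in place of P60 and frontal cortex, and the sample labels were followed. The design text says that the mice sampled had different mothers, and whether the 3 regions of an age came from the same animals is not stated.

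Poly-A RNA was sequenced with a stranded kit. Values are CPM (counts scaled to a common total) on the authors' effective library size, and whole reads could be recovered from them, giving 2933026 to 9469214 reads per library. For Mir146 itself a single WT library held 1 read and the other 51 held 0, so these poly-A tables do not check the genotype labels. The 8 hippocampal marker genes summed to 2786 to 4827 in P30 hippocampus and 471 to 563 in P30 frontal cortex. The 8 amygdala markers summed to 359 to 472 in 7 of the 8 P30 amygdala libraries and to 180 in WT replicate 3, inside the 132 to 207 of frontal cortex. That library also had the highest sum of 10 myelin genes in P30 amygdala, 7030 against 1456 to 2708. In P30 hippocampus, WT replicate 3 stood apart with 19700 for myelin genes, against 5069 to 13630 in the other 7 libraries. It also had 5520 for 7 choroid plexus genes, against 41.3 to 1185. WT replicates 2 and 4 had 13630 and 12000 for myelin genes, above every KO library (5069 to 8887), and WT replicate 1 had 5668. At P60 the hippocampal markers summed to 4217 to 4859 in 3 hippocampus libraries and to 1962 and 2071 in replicate 1 of KO and of WT, with 444 to 547 in frontal cortex. KO P60 amygdala replicate 3 had 223 for amygdala markers, against 334 to 475 in the other 6 libraries, and 3354 for myelin genes, against 1272 to 2212. Counts of members were also made without these 5 libraries, an alternative chosen after seeing the data. A gene's difference given below is repeated without them where its call changed. Other libraries with high choroid plexus sums were kept. They included WT P30 amygdala replicate 1 (1240), KO P30 hippocampus replicate 4 (1185) and KO P30 frontal cortex replicate 2 (706). By 8 frontal cortex markers, some kept amygdala libraries lay near those left out. KO P30 replicate 2 summed to 699 against 779, and WT P60 replicate 3 to 678 against 677. In tissue RNA, fewer cells of a type and less RNA per cell cannot be told apart.

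Pyrimidine runs near the start were looked for in RefSeq promoters (GRCm38.p6). A run at the start itself is the sequence through which these genes are known to be controlled together. Promoters of 63 of the 83 members were in that table. The letters CTTTC or CTTTT, on the sense strand within 20 bases before to 50 bases after the annotated start, were found in 39 of the 63 (61.9%) and in 2537 of 16425 protein-coding genes (15.4%). The letters CCGGAAG, on either strand of the 300-base promoter, were found in 26 members (41.3%) and in 2200 of all such genes (13.4%). The windows below are 24 bases long, 5′ to 3′, with the pyrimidine run that holds the match in capitals; the first 6 belong to genes described below and the last 3, with no match, to the genes with the largest falls after E14.
Rplp2, chr7:141447643-141447666, + strand: gcgTCTTCCTTTCgccgccggacg
Rps26, chr10:128626484-128626507, - strand: cggaTCCTCTTTCgagtcttggct
Rps12, chr10:23787185-23787208, - strand: ccgccggCCTTTTCCCCTgccgcc
Rps6, chr4:86857350-86857373, - strand: tcgggCCTCTTTTTCgtgacgcct
Rpl4, chr9:64173367-64173390, + strand: agTCTTTCCTTTTCCTgtgggagc
Rpsa, chr9:120127780-120127803, + strand: cgcccgTCCTTTCgcgctacccgg
Rps13, chr7:116334175-116334198, - strand: aacgtcggtgagtggcgtcacttc
Rplp0, chr5:115559459-115559482, + strand: ggtttcgaggaccgcctggttctc
Rpl27, chr11:101442237-101442260, + strand: gttcctgtctgctgctcgtgctgc
Matches need not lie at the start itself: from the annotated start, the match was at -17 in Rpl4 and at 22 in Rpsa. A match describes the letters in the window and shows no site of control. A window without a match says only that these letters were not there, and draws nothing about control.

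Summed over the 83 members, ribosomal protein genes made up 1.14% to 1.53% of the counts in E14 cortex, against 0.376% to 0.510% in P30 libraries and 0.413% to 0.596% in P60 libraries. All 9 embryonic libraries lay above all 43 postnatal libraries. Within E14, KO cortex had 1.30% ± 0.154 (SD, n = 5) and WT cortex 1.24% ± 0.0918 (SD, n = 4), and the 2 groups overlapped. At P30 the summed level was 4817 ± 89.7 CPM in WT amygdala, 4867 ± 291 in WT hippocampus and 3898 ± 34.9 in WT frontal cortex (SD, n = 4 each). KO gave 4672 ± 93.8, 4782 ± 111 and 3926 ± 113 in the same order (SD, n = 4 each). At both postnatal ages and in both genotypes, frontal cortex had the lowest mean of the 3 regions. The ratio of large- to small-subunit sums ran from 1.53 to 1.60 in E14 libraries, 1.66 to 1.86 in P30 libraries and 1.61 to 1.74 in P60 libraries. E14 overlapped neither postnatal age.

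**Figure D1:**
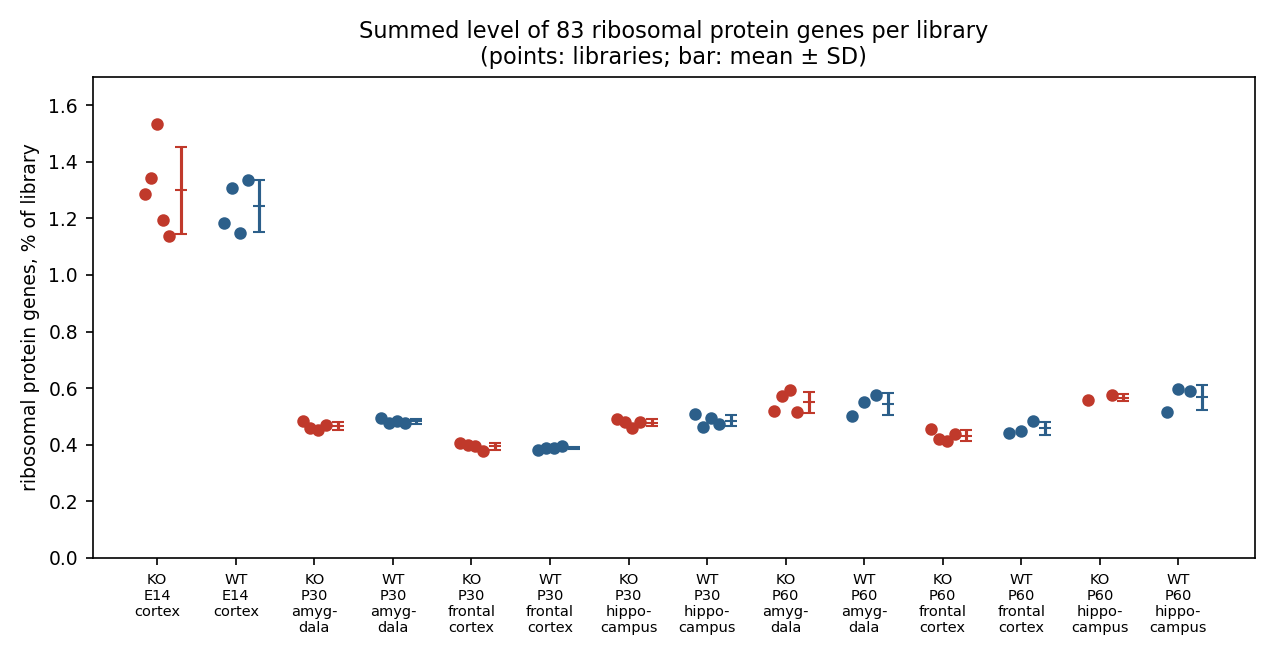
Summed level of the 83 ribosomal protein genes as a percentage of each library (y axis), by genotype, age and region (x axis); points are libraries and bars are mean ± SD. E14 cortex lies between 1.14% and 1.53%, above every postnatal library, which lie between 0.376% and 0.596%.

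Levels differed widely among members when expressed per kilobase of exon. At E14 the highest means were Rps3a1 at 386 CPM per kilobase, Rplp1 at 360, Rps15 at 350, Rpl4 at 337 and Rpl36 at 266. The lowest tested were Rpl24 at 5.83 and Rps27a at 9.12. Ribosomal protein genes have many processed copies in the genome, and reads of a gene with a near-identical copy could be split or lost. Of the 77 members other than paralogs, 10 had no other annotated gene whose transcript matched at 98% identity or more over at least 130 bases, 53 had 1 to 5 and 14 had 6 or more. Their median levels per kilobase at E14 were 96.3, 66.5 and 53.2. Levels of single genes are therefore uncertain where copies exist. Comparisons of 1 gene across samples are used below, except where a paralog is set against its partner.

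The first question of the design was what loss of Mir146 does. No ribosomal protein gene passed the test between KO and WT in any of the 7 comparisons: 0 of 80 members passed an adjusted p of 0.05 in limma fitted over all genes (Benjamini-Hochberg), and voom on the recovered reads also called 0. The share of all tested genes called was 0.049% in E14 cortex, 0.0263% in P30 amygdala, 0.0158% in P30 frontal cortex, 0.0316% in P30 hippocampus, 0.0208% in P60 amygdala, 0.0312% in P60 frontal cortex and 0.0208% in P60 hippocampus. At an unadjusted p under 0.05, the members numbered 2, 5, 3, 3, 5, 4 and 1 of 80 in that order, where 2.89%, 9.82%, 1.96%, 9.55%, 4.07%, 2.24% and 2.04% of all genes did. In each of the 6 tests of whether the KO effect differed between regions, 0 members and 0 genes were called (0.0%). At an unadjusted p under 0.05 in limma, 1 to 6 of the 80 members stood in these tests. The share of all genes at that threshold is not given, so this count shows no trait particular to the members. The median standard error of a member's log2 fold change was 0.0969 at P30 in each region, 0.105 at E14, 0.115 in P60 amygdala and frontal cortex, and 0.138 in P60 hippocampus, where KO had 2 libraries. Listed beside them were 18 genes with known pyrimidine-tract control, most of them translation factors, 30 ribosome assembly genes and 14 mTOR-pathway genes. None of these was called in any KO comparison.

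**Figure D2:**
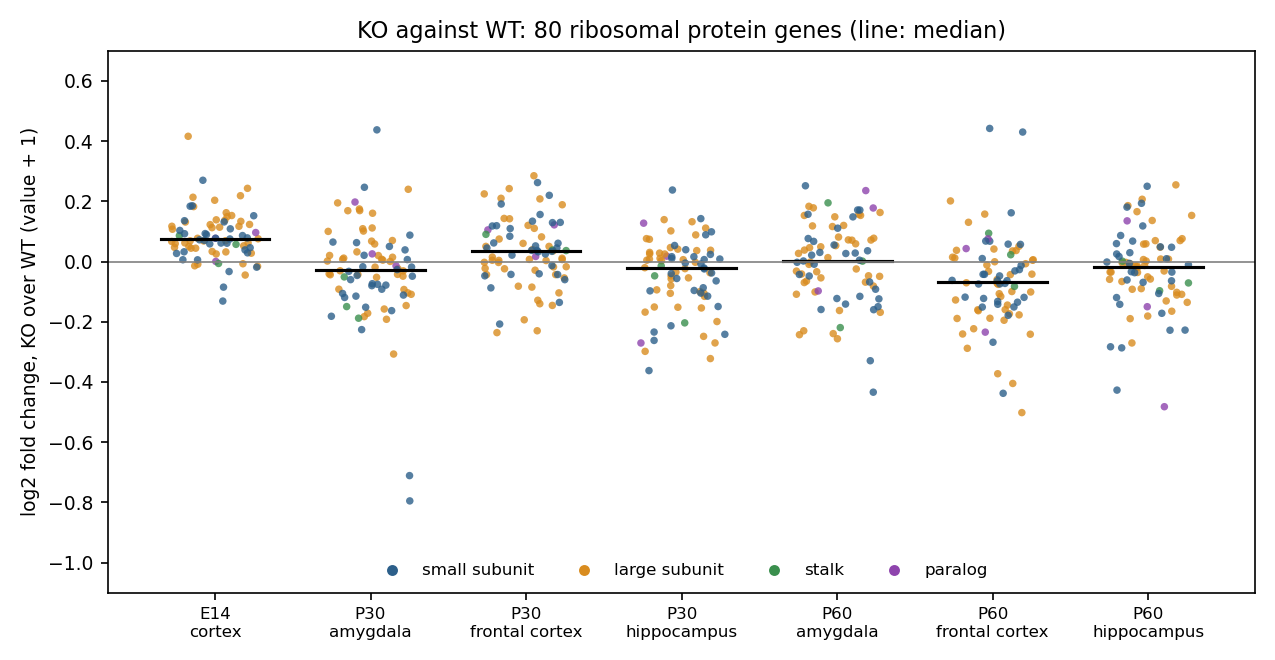
Log2 fold change of KO over WT on the log2(value + 1) scale (y axis) for the 80 tested genes in the 7 comparisons (x axis); points are genes, coloured by role, and black lines are medians. The medians lie between -0.0672 in P60 frontal cortex and 0.0736 in E14 cortex, and no gene passed the test.

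In E14 cortex, 70 of the 80 members had a log2 fold change above 0, where 52.5% of all genes did, with a median of 0.07 against 0.01 for all genes. This offset followed KO replicate 3, in which 73 of 80 members lay above their group mean, by a median of 0.28. Without that library the median was 0.00674. KO replicates 4 and 5 were on the other side, with 4 and 1 members above the group mean. Rpl37a, a zinc-binding protein of the large subunit, had the largest difference: 74.7, 58.3, 111, 68.5 and 63.7 CPM in KO replicates 1 to 5 and 55.9, 54.9, 45.4 and 64.4 in WT replicates 1 to 4. The groups overlapped, and KO replicate 3 was the highest library. Its log2 fold change was 0.42 (SE 0.172, adjusted p 1.0 in limma). By Xist and Y-linked genes, 3 of 5 KO and 1 of 4 WT embryos were male, and with sex as a covariate 0 members were called.

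In P30 amygdala, 8 members had all KO libraries below all WT libraries (2.52% of all genes did) and 0 were on the other side (4.12% of all genes were). Rps28 and Rpsa were among them, and were chosen for description after their values were seen. Without WT replicate 3 the numbers were 10 (4.80% of all genes) and 0 (6.52%). Rps28, a small-subunit protein near the messenger RNA exit, read 3.86, 5.13, 7.39 and 7.18 in KO and 8.30, 9.25, 14.5 and 11.6 in WT. The log2 fold change was -0.79 (SE 0.235) with an adjusted p of 0.291 in limma; with the P30 libraries that stood apart left out, including the highest WT value, it was -0.66 (adjusted p 0.320). Rpsa, the laminin receptor protein of the small subunit, read 87.2, 101, 90.3 and 93.5 in KO and 105, 101, 111 and 105 in WT. All 4 WT values lay above the highest KO value, the closest pair being 101.0 and 101.4, and the log2 fold change of -0.18 (SE 0.0610) had an adjusted p of 0.321 in limma (-0.16 and 0.353 without those libraries). The median of all 80 members was -0.03, and -0.0156 without WT replicate 3. Of the P30 animals, 1 of 4 KO and 3 of 4 WT were male. A fit with sex as a covariate called 0 members, and its values for single genes are not given. Myelin genes summed to 1456 to 2370 in KO and 1832 to 7030 in WT amygdala, and their part in these values was not tested.

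In P60 frontal cortex, 11 members had every KO library below every WT library (2.58% of all genes) and 1, Rps27, the reverse (2.68%). Rpl23a, a protein at the mouth of the nascent-chain exit tunnel, read 8.03, 9.12, 9.39 and 7.59 in KO and 11.8, 13.6 and 12.1 in WT. KO was lower in every library, by 0.50 on the log2 scale (SE 0.174), and the adjusted p was 1.0 in limma. The median over members was -0.07, against 0.00157 for all genes, and ran from -0.09 to -0.04 with a library left out. In P60 amygdala 1 member was higher in KO without overlap (2.4% of all genes) and 0 were lower (2.64%). In P60 hippocampus, 3 were higher (6.15%) and 2 lower (5.56%) in KO. E14 cortex, P30 frontal cortex and P30 hippocampus had 0 such members, where the shares of all genes higher and lower in KO were 0.643% and 0.512%, 1.37% and 0.985%, and 1.51% and 1.63%. With the libraries that stood apart left out, 1 member was higher (2.75% of all genes) and 4 lower (3.56%) in KO in P30 hippocampus, and 1 higher (4.60%) and 1 lower (4.66%) in P60 amygdala. In P60 hippocampus that left 1 KO library against 2 WT, with 17 members higher (31.6%) and 39 lower (31.9%). No KO comparison had a called member without them.

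Between regions the picture was different. Ribosomal protein genes were higher in amygdala and in hippocampus than in frontal cortex at both postnatal ages, across both subunits and the stalk. At P30, amygdala exceeded frontal cortex in 55 members and fell below it in 1, with a median log2 difference of 0.28 (0.06 for all genes); 37.3% of all genes were called, 23.4% higher in amygdala and 13.9% lower. Hippocampus exceeded frontal cortex in 54 and fell below in 0, with a median of 0.29 (-0.01 for all genes); 43.3% of all genes were called, 19.6% higher and 23.7% lower. At P60 the counts were 58 and 0 for amygdala (31.4% of genes called, 20.3% higher and 11.0% lower) and 61 and 0 for hippocampus (32.8%, 15.8% higher and 17.0% lower), with medians of 0.335 and 0.355. Members whose amygdala libraries all lay above all frontal cortex libraries numbered 25 at P30 (5.82% of all genes) and 19 at P60 (7.81%), and for hippocampus 24 (6.55%) and 37 (8.76%). The 2 comparisons at an age share the frontal cortex libraries, so they are given side by side only. The ages have no library in common. Between amygdala and frontal cortex, 49 members were called at both ages, 87.5% of the P30 calls and 84.5% of the P60 calls. Between hippocampus and frontal cortex the number was 50, 92.6% and 82.0%. The share of all genes called at both ages is not given, so these counts show no trait particular to the members.

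Without the WT amygdala library that stood apart, 54 members were higher and 2 lower at P30, with a median of 0.27. Without the WT hippocampus library, 58 were higher and 1 lower, with a median of 0.29. With both left out, 56 were higher and 2 lower in amygdala and 57 higher and 1 lower in hippocampus, and 26 members in each region lay above all frontal cortex libraries (9.70% and 8.61% of all genes). The shares of all genes called without these P30 libraries are not given, so the counts of calls show no trait particular to the members. At P60, with the 3 libraries that stood apart left out, KO hippocampus had 1 library, which was taken to vary like the other groups. The medians were then 0.296 for amygdala and 0.423 for hippocampus. Members above all frontal cortex libraries numbered 19 (9.53% of all genes) and 55 (15.7%). All 10 myelin genes were lower in amygdala than in frontal cortex at both ages (median -1.42 at P30, none at 0 in any group), and their sums were 1456 to 7030 in P30 amygdala, 4841 to 7866 in frontal cortex and 5069 to 19700 in hippocampus. In hippocampus 1 of the 10 was called higher than in frontal cortex at P30 and 0 at P60. Of 6 excitatory neuron genes, 3 were lower and 0 higher in amygdala at P30, and 3 higher and 3 lower in hippocampus. Of 12 microglial genes, 1 was lower in amygdala and 7 in hippocampus at P30, and of 6 meningeal genes 3 were higher in amygdala. The part of cell composition in the ribosomal protein differences was not tested.

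**Figure D3:**
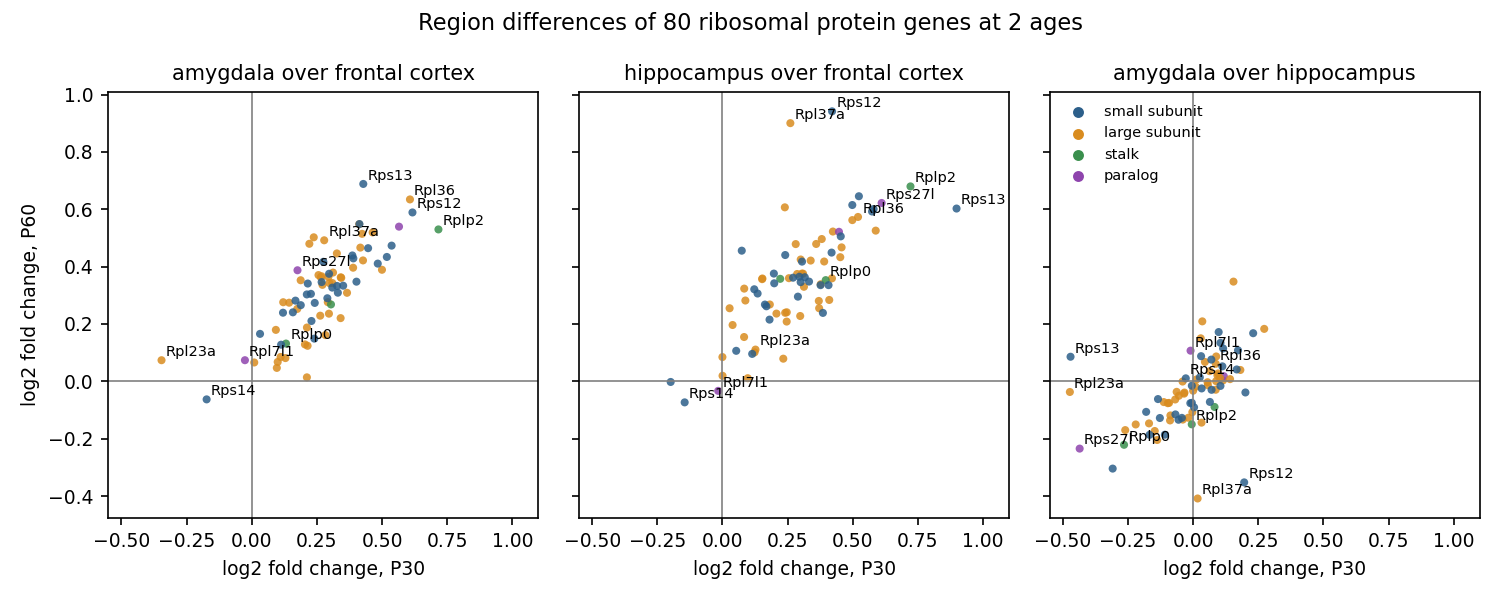
Log2 fold change at P30 (x axis) and P60 (y axis), both on the log2(value + 1) scale, of the 80 tested genes for 3 pairs of regions; points are genes, coloured by role. Nearly all points lie above 0 on both axes for amygdala and hippocampus over frontal cortex, with medians of 0.28 and 0.335 and of 0.29 and 0.355, and around 0 for amygdala over hippocampus.

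The stalk proteins recruit translation factors to the large subunit. At P30, Rplp1 and Rplp2 passed in both regions and Rplp0 in hippocampus. Rplp2 (chromosome 7, 141447370 to 141451585, + strand, GRCm38) read 36.7 to 48.7 in the 8 P30 amygdala libraries (median 39.8), 32.9 to 54.1 in hippocampus (median 40.7) and 20.7 to 30.7 in frontal cortex (median 24.7). Every amygdala and hippocampus library lay above every frontal cortex library. Its log2 differences were 0.72 (SE 0.0769, adjusted p 7.88e-08 in limma) for amygdala and 0.72 (adjusted p 2.16e-08) for hippocampus, the largest of any member for amygdala. At P60 Rplp2 was 49.3 ± 8.74 in amygdala (SD, n = 7), 54.5 ± 4.39 in hippocampus (SD, n = 5) and 33.6 ± 3.55 in frontal cortex (SD, n = 7), and only hippocampus was free of overlap with frontal cortex. Rplp1 was at 128 ± 7.29 in P30 amygdala against 103 ± 5.01 in frontal cortex (SD, n = 8 each), without overlap, a log2 difference of 0.30 (adjusted p 3.18e-05 in limma). Rplp0 (chromosome 5, 115559467 to 115563727, + strand), the protein that anchors the other stalk proteins, was 64.2 ± 4.90 in P30 hippocampus, 53.5 ± 7.69 in amygdala and 48.4 ± 2.93 in frontal cortex (SD, n = 8 each). Hippocampus exceeded frontal cortex by 0.40 (adjusted p 2.72e-05 in limma), while amygdala did not pass (0.13, adjusted p 0.131).

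In the small subunit, 23 of 31 members were called higher in amygdala and 21 in hippocampus at P30, and 25 and 25 at P60. Rps13 (chromosome 7, 116331505 to 116334195, - strand), a small-subunit protein, read 16.5 to 39.9 in P30 hippocampus (median 32.5), 12.2 to 27.5 in amygdala (median 22.7) and 11.1 to 21.3 in frontal cortex (median 15.5). Of the 8 hippocampus libraries 7 were above all frontal cortex libraries, and the lowest was inside their range. The log2 difference of hippocampus over frontal cortex was 0.90 (SE 0.170, adjusted p 1.72e-04 in limma), and that of amygdala was 0.43 (adjusted p 0.0528). At P60 both passed, at 0.69 for amygdala (adjusted p 0.00367) and 0.60 for hippocampus (adjusted p 0.0151). Rps26 (chromosome 10, 128624534 to 128626747, - strand), which contacts the messenger RNA at the exit side, separated without overlap: 57.3 to 73.9 in P30 amygdala, 56.6 to 88.4 in hippocampus and 39.5 to 48.6 in frontal cortex. No library of the first 2 regions reached the frontal cortex range, and the log2 differences were 0.54 (adjusted p 3.00e-06 in limma) and 0.58 (adjusted p 4.12e-07).

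Rps19, a small-subunit protein whose loss causes Diamond-Blackfan anaemia, was 46.1 ± 6.54 in P60 amygdala, 42.6 ± 3.75 in hippocampus and 31.1 ± 3.40 in frontal cortex (SD, n = 7, 5 and 7), with no overlap between frontal cortex and either region. Rps6, the substrate of the S6 kinases, was 116 ± 5.81 in P30 amygdala, 127 ± 6.61 in hippocampus and 97.6 ± 4.44 in frontal cortex (SD, n = 8 each). Both regions lay wholly above frontal cortex, by 0.24 and 0.38 on the log2 scale (adjusted p 1.12e-04 and 1.11e-07 in limma). Rps12 was the most variable member within groups at all 3 ages. Its P30 amygdala libraries ran from 7.51 to 23.9 and its frontal cortex libraries from 5.80 to 15.2, a difference of 0.62 (SE 0.230, adjusted p 0.0402 in limma) that was not called with TMM scaling (adjusted p 0.0700) or, for 11 of 16 libraries, with that library left out (adjusted p 0.0518 to 0.0911). In P60 hippocampus Rps12 read 17.2 to 40.4 against 8.28 to 20.7 (0.94, adjusted p 0.00566 in limma). Rps28 was higher in P60 hippocampus than in frontal cortex, 9.89 ± 2.62 against 5.77 ± 1.34 (SD, n = 5 and 7), by 0.65 (adjusted p 0.0183 in limma); the call was lost without KO hippocampus replicate 2 (adjusted p 0.118) or WT hippocampus replicate 2 (adjusted p 0.0505). Rpsa rose by 0.21 in P30 amygdala over frontal cortex (adjusted p 3.73e-04) and by 0.18 in hippocampus (adjusted p 0.00129 in limma).

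In the large subunit, 29 of 43 members were called higher in amygdala at P30 and 28 in hippocampus, and 29 and 31 at P60. Rpl10 (chromosome X, 74270812 to 74273135, + strand), which is added late in assembly, read 74.4 to 96.2 in P30 hippocampus and 44.9 to 62.7 in frontal cortex. The 2 regions did not overlap, and the log2 difference was 0.59 (SE 0.0698, adjusted p 1.29e-07 in limma). Rpl36 read 25.9 to 42.2 in P30 amygdala against 14.8 to 27.2 in frontal cortex, with 1 amygdala library inside the frontal cortex range, a difference of 0.61 (SE 0.166, adjusted p 0.00656 in limma). Rpl35a, another Diamond-Blackfan gene, was 31.7 ± 5.00 in P60 amygdala and 21.4 ± 3.69 in frontal cortex (SD, n = 7 each), a difference of 0.55 (adjusted p 0.00120 in limma). Rpl37a in hippocampus over frontal cortex had 0.26 (adjusted p 0.188) at P30 and 0.90 (adjusted p 0.00621 in limma) at P60, where the 5 hippocampus libraries read 23.6 to 51.3 and the highest frontal cortex library 24.0. Without KO hippocampus replicate 2 the P60 adjusted p was 0.0536. The difference between the ages was not tested. Rpl5 and Rpl11, which with 5S RNA bind the p53 regulator Mdm2, were both higher in P30 hippocampus without overlap, by 0.30 (adjusted p 5.37e-06) and 0.42 (adjusted p 3.91e-08 in limma). Rpl4, a protein lining the exit tunnel and the member with the most CPM over all libraries, was 309 ± 15.9 in P30 hippocampus, 279 ± 7.14 in amygdala and 260 ± 9.04 in frontal cortex (SD, n = 8 each).

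Members not called against frontal cortex numbered 24 for amygdala and 26 for hippocampus at P30, and 22 and 19 at P60. Rpl23a was the member called lower in amygdala than in frontal cortex at P30: 4.79 to 8.26 against 5.96 to 10.6, with overlap, a log2 difference of -0.35 (adjusted p 0.0264 in limma). The call was lost without KO amygdala replicate 3, WT amygdala replicate 1, KO frontal cortex replicate 4 or WT frontal cortex replicate 3 (adjusted p 0.0635 to 0.0705). At P60 its difference was 0.07 (adjusted p 0.691). Rps14 had differences below 0 in amygdala and hippocampus at both ages, none of them called in the fit over all libraries, and it was chosen for mention after its values were seen. Without the libraries that stood apart it was called in P30 amygdala (-0.20, adjusted p 0.0395). Rpl7l1, a paralog that acts in ribosome assembly, differed from frontal cortex by between -0.03 and 0.07 in the 4 comparisons, with adjusted p from 0.559 to 0.880 in limma. Rpl3, which forms part of the peptidyl transferase centre, did not pass at P30 (0.12 and 0.03, adjusted p 0.208 and 0.789) and passed at P60 (0.28 and 0.25, adjusted p 0.00408 and 0.0126 in limma). Without the libraries that stood apart, Rpl3 was called in P30 amygdala (0.18, adjusted p 0.0183) and not in P60 hippocampus (0.21, adjusted p 0.0637).

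Fewer members were called between amygdala and hippocampus. At P30, 4 members were higher in amygdala (28.8% of all genes were) and 11 lower (15.3%), and at P60, 0 were higher (19.6% of all genes) and 2 lower (9.39%), with 44.1% and 29.0% of all genes called in total. The members' median was 0.00668 at P30 against 0.07 for all genes; it was -0.0586 with TMM scaling, -0.0758 with voom and -0.00287 without the WT amygdala library that stood apart. Without that library, or without the WT hippocampus library that stood apart, 15 members were called, and without both 19, of which 14 were lower in amygdala. The shares of all genes called without these libraries are not given, so the counts show no trait particular to the members. Rpl22, an RNA-binding protein of the large subunit, was the only member without overlap at P30: 40.4 to 44.6 in amygdala and 45.3 to 59.5 in hippocampus (3.46% of all genes were lower without overlap). Its log2 difference was -0.26 (SE 0.0568, adjusted p 5.21e-04 in limma). The other large differences at P30 were Rpl23a at -0.47 (adjusted p 0.00240), Rps13 at -0.47 (adjusted p 0.0289), Rps27l at -0.44 (adjusted p 0.00348) and Rplp0 at -0.27 (adjusted p 0.00224). Higher in amygdala were Rpl41 at 0.27, Rps2 at 0.23, Rps21 at 0.20 and Rps15 at 0.17, of which Rps2, Rps21 and Rps15 were not called with TMM scaling (adjusted p 0.139, 0.202 and 0.115). With a library left out, the call was lost for 6 of 16 libraries in Rps13 (adjusted p up to 0.0696) and for 9 of 16 in Rps2 and in Rps21 (up to 0.0782 and 0.0899). Without both libraries that stood apart, Rps13 and Rps21 were not called (adjusted p 0.0927 and 0.130). At P60 the called members were Rplp0 at -0.22 (adjusted p 0.0463) and Rpl4 at -0.17 (adjusted p 0.0212 in limma). With the replicate number as a block Rplp0 was not called (adjusted p 0.0970). Without WT amygdala replicate 1 or KO hippocampus replicate 2 the P60 count was 0, and without WT hippocampus replicate 1 it was 8. With the 3 P60 libraries that stood apart left out, KO hippocampus had 1 library and the median over the 80 was -0.125. The median of all genes without them is not given, so this value shows no trait particular to the members.

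Other genes of the translation machinery were read from lists chosen with earlier results known. The first list held 18 genes with known pyrimidine-tract control, most of them translation factors. Of these, 11 were higher and 1 lower in P30 amygdala than in frontal cortex (median 0.21), and 15 were higher and 1 lower in hippocampus (median 0.26). Eef1a1, the elongation factor that delivers transfer RNA, was 1300 ± 69.6 in amygdala, 1472 ± 102 in hippocampus and 1026 ± 21.7 in frontal cortex (SD, n = 8 each). Npm1, a nucleolar chaperone, was 115 ± 11.1, 124 ± 8.58 and 88.4 ± 5.67 in the same order. Nap1l1, a histone chaperone, went the other way in hippocampus, at 111 ± 8.21 against 163 ± 4.57, and was the lower one. Of 30 ribosome assembly genes, 12 were higher and 1 lower in amygdala and 6 higher and 4 lower in hippocampus. Of 14 mTOR-pathway genes, 2 were higher and 1 lower in amygdala, and 4 and 4 in hippocampus. The 77 tested mitochondrial ribosomal protein genes, which serve another ribosome, had 21 higher and 2 lower in amygdala (median 0.11) and 19 higher and 7 lower in hippocampus (median 0.07). At P60 the 18 genes with known pyrimidine-tract control had 9 higher and 0 lower in amygdala, and 12 higher and 1 lower in hippocampus.

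From E14 cortex to P30 frontal cortex, every tested ribosomal protein gene was lower, in both genotypes. The ages are separate tables of separate tissue dissections, so age, table and dissection cannot be told apart, and no test was made. Reads were scaled together by TMM for this description. All 80 members were lower in WT without overlap between libraries (39.6% of all genes were), and all 80 in KO (36.9%). The median log2 difference was -1.49 in WT and -1.47 in KO, a median fold of 2.85 and 2.84, against -0.12 and -0.0857 for all genes. Plain CPM moved the median of all WT genes to -0.36 and that of the members to -1.76, and both scalings left all 80 members lower. Relative to E14, P60 frontal cortex was also lower in 80 of 80 members in each genotype, 77 without overlap in each (40.7% and 36.2% of all genes), with medians of -1.18 in WT and -1.30 in KO.

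**Figure D4:**
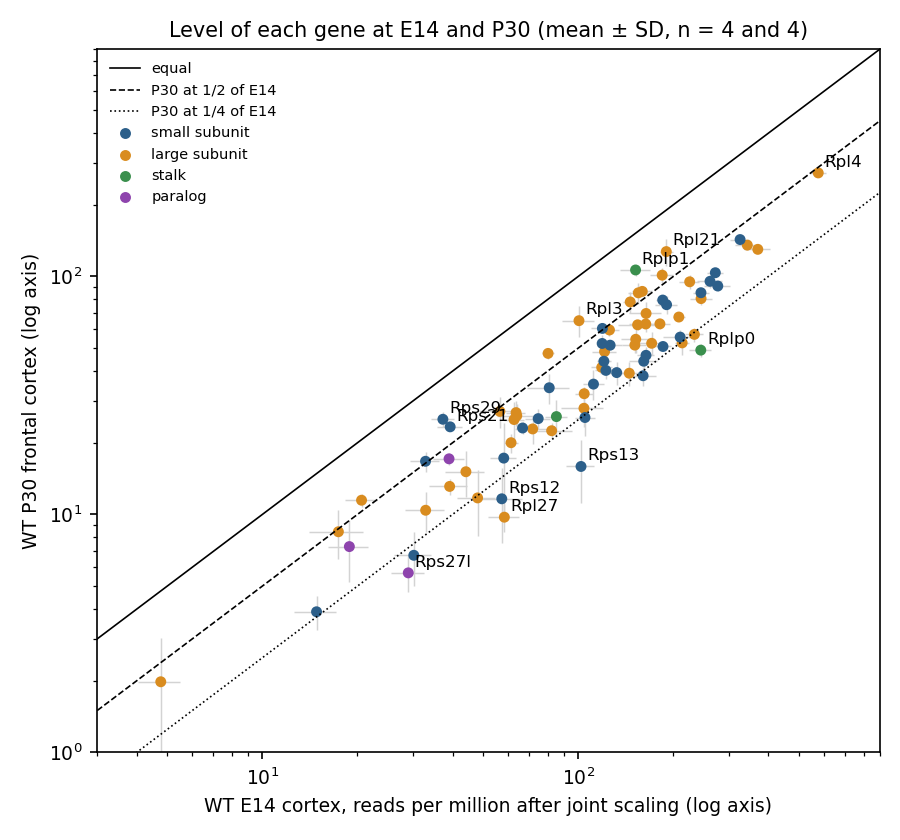
Mean level of each tested gene in WT E14 cortex (x axis) and WT P30 frontal cortex (y axis), in CPM after joint TMM scaling on log axes; points are genes coloured by role and grey lines are SD (n = 4 each). All 80 points lie below the line of equal levels, Rplp1 closest to it at a fold of 1.43 and Rps13 farthest at 6.42.

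The size of the fall varied among members from 1.43-fold to 6.42-fold in WT. Rps13 fell most: 89.6, 115, 101 and 103 CPM after joint scaling in the 4 WT E14 libraries and 12.7, 17.3, 22.0 and 11.7 in the 4 at P30. The lowest embryonic value was above the highest P30 value, and the log2 difference was -2.64. Rpl27, a large-subunit protein, went from 53.7, 60.6, 52.3 and 66.6 to 8.81, 8.37, 10.8 and 11.0, a 5.99-fold fall. Rplp0 went from 223, 261, 232 and 260 to 49.4, 50.1, 51.8 and 44.8 (log2 difference -2.29). All 3 were far from overlap. Rps12 and the paralog Rps27l followed at -2.26 and -2.17.

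At the other end, Rplp1 went from 149, 161, 130 and 168 to 99.8, 109, 104 and 113 (log2 difference -0.50), with all P30 values below all E14 values. Rps29, a zinc-binding small-subunit protein, fell by 0.55 on the log2 scale, Rpl21 by 0.58, Rpl3 by 0.62 and Rps21 by 0.72. The 3 stalk proteins thus stood at both ends and in the middle: -0.50 for Rplp1, -1.70 for Rplp2 and -2.29 for Rplp0. KO gave -0.52, -1.62 and -2.23 for the same genes. Rps6 had a difference of -1.38 in WT, Rpl5 -1.50, Rpsa -1.59 and Rpl11 -1.61, all near the median of the members. Rpl4, at 575 ± 33.4 and 272 ± 8.17 (SD, n = 4 each), had -1.08. The 38 tested members with the pyrimidine letters in the window around the start had a median of -1.41 in WT. The 22 without them had -1.51, and in KO the values were -1.47 and -1.57.

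Other lists moved over the same interval. All 18 genes with known pyrimidine-tract control were lower in WT without overlap (median -1.15). Of 30 ribosome assembly genes 23 were lower and 2 higher (median -0.86), and of 14 mTOR-pathway genes 3 were lower and 5 higher. Of 77 mitochondrial ribosomal protein genes, 41 were lower and 4 higher (median -0.29). All 8 tested cortical progenitor genes were lower (median -4.26), and their sum of 9 genes went from 3044 to 3979 in WT E14 cortex to 79.5 to 94.4 in P30 frontal cortex. All 8 tested microglial genes and all 6 tested myelin genes were higher, and so were all 13 protein genes of the mitochondrial genome. These changes in the listed genes run alongside the fall of the ribosomal protein genes, and the part of cell content in that fall was not tested.

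From P30 to P60 the medians of the ribosomal protein genes were somewhat higher, again between tables and with no test. The median log2 difference was 0.19 in WT and 0.24 in KO amygdala, 0.26 and 0.12 in frontal cortex, and 0.24 and 0.23 in hippocampus. Members higher at P60 without overlap numbered 30 in WT amygdala (6.76% of all genes), 33 in KO amygdala (3.16%), 43 in WT frontal cortex (6.83%), 21 in KO frontal cortex (4.32%), 24 in WT hippocampus (6.53%) and 41 in KO hippocampus (9.91%), where P60 had 2 libraries. Members lower without overlap numbered 1 in KO frontal cortex (5.75%) and 4 in KO hippocampus (11.4%). In the deposited values, which were scaled separately at each age, myelin genes summed to 4841 to 7866 in frontal cortex at P30 and 2391 to 4909 at P60, to 5069 to 19700 and 2657 to 4607 in hippocampus, and to 1456 to 7030 and 1272 to 3354 in amygdala. Their part in the differences between these ages was not tested. Rps29 in WT frontal cortex was 23.7 to 27.7 at P30 and 34.1 to 37.2 at P60, and in KO it had means of 24.6 and 34.0. Neither genotype overlapped between the ages. Rplp1 in WT frontal cortex was 99.8 to 113 at P30 and 132 to 149 at P60, also without overlap. Rps6 was level, with 98.9 to 108 and 97.9 to 110, and Rps26 was lower in mean in WT amygdala, at 63.3 ± 7.41 and 51.4 ± 8.75 (SD, n = 4 and 3), with overlap.

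Some paralogs can replace their partner in the ribosome, while Rpl7l1 acts in ribosome assembly. Each was read as a percentage of its partner per kilobase of exon. Each percentage sets 2 genes side by side, so reads lost to near-identical copies of either gene could shift it. Rpl22l1, the paralog of Rpl22, was at 23.2% ± 2.41 (SD, n = 4) in WT E14 cortex and 22.6% ± 3.34 (SD, n = 5) in KO. In P30 amygdala it was at 35.9% ± 4.64 in WT and 40.2% ± 7.14 in KO. In P30 frontal cortex it was at 25.9% ± 7.46 and 27.8% ± 4.78, and in P30 hippocampus at 28.8% ± 2.18 and 29.3% ± 8.07 (SD, n = 4 each). At P60 the WT means were 38.0% in amygdala, 31.1% in frontal cortex and 41.5% in hippocampus (n = 3 each). KO means were 44.5%, 26.4% and 30.3% in the same order (n = 4, 4 and 2). Rpl22l1 itself was higher in amygdala than in frontal cortex at P30, 11.2 ± 1.98 against 7.25 ± 1.54 CPM (SD, n = 8 each), by 0.57 (SE 0.119, adjusted p 5.06e-04 in limma), while Rpl22 did not pass (0.11, adjusted p 0.131). In hippocampus both passed, at 0.45 (adjusted p 0.00334) for Rpl22l1 and 0.37 (adjusted p 6.48e-06 in limma) for Rpl22. The difference between paralog and partner was not tested.

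**Figure D5:**
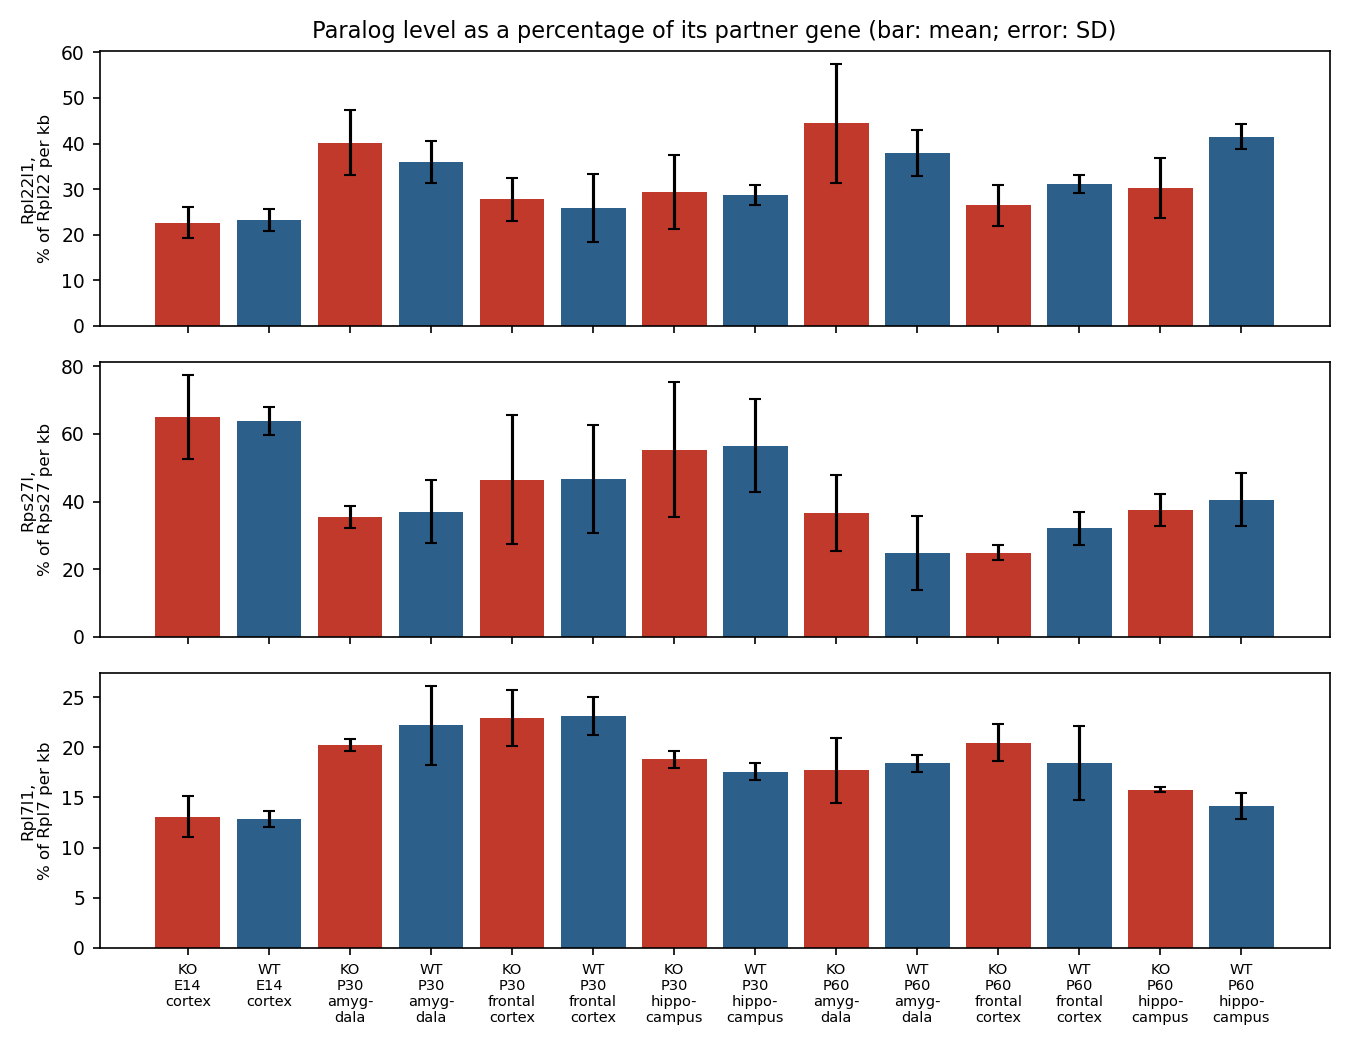
Level of 3 paralogs as a percentage of their partner gene per kilobase of exon (y axes) in the 14 groups (x axis); bars are means and error bars SD, red for KO and blue for WT. Rps27l is highest at E14, at 63.7% of Rps27 in WT, while Rpl7l1 is lowest there, at 12.8% of Rpl7.

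Rps27l, the p53-responsive paralog of Rps27, was at 63.7% ± 4.18 (SD, n = 4) of its partner in WT E14 cortex and 65.0% ± 12.4 (SD, n = 5) in KO. Postnatal group means ran from 24.8% in WT P60 amygdala to 56.6% in WT P30 hippocampus, with wide spread between libraries. Rps27l was raised in hippocampus over frontal cortex at both ages: 6.86 to 11.6 against 4.49 to 7.20 at P30 (0.61, adjusted p 1.18e-04 in limma), and 9.01 ± 1.92 against 5.40 ± 0.720 at P60 (SD, n = 5 and 7; 0.62, adjusted p 0.00146). The ranges overlapped at P30 and not at P60. Rps27 in the same comparison had 0.39 (adjusted p 0.0502) and 0.24 (adjusted p 0.304 in limma). Rpl7l1 went the other way with age, at 12.8% ± 0.774 of Rpl7 in WT E14 cortex and 23.1% ± 1.87 in WT P30 frontal cortex (SD, n = 4 each), without overlap. Rpl3l, a striated-muscle paralog, was at no more than 1.48% of Rpl3 in any group mean. Rpl39l and Rpl10l, both known from the testis, were at or near 0 beside Rpl39 at 61.3 ± 3.28 in WT E14 cortex and 20.0 ± 1.86 in WT P30 frontal cortex after joint scaling (SD, n = 4 each), and Rpl10 at 213 ± 10.9 and 52.6 ± 5.77. Rps4l is annotated as a transcribed processed pseudogene and is no member, and its partner Rps4x went from 210 ± 24.1 to 55.6 ± 4.19.

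The spread between libraries of a group was compared with that of other genes. The median within-group SD of a member was 0.163 on the log2 scale at E14, against 0.113 for 5335 other genes of like level and 0.180 for all genes tested. It was 0.127 at P30, against 0.136 for 7331 such genes and 0.196 for all, and 0.142 at P60, against 0.139 for 7615 and 0.199. Rps12 had the largest SD at each age, 0.352, 0.448 and 0.411, and Rpl10 the smallest at E14, 0.056.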

How the data were processed

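The authors deposited CPM values on an effective library size, a score that is not a raw count, written with decimal commas in 3 tables, 1 per age. The submitters' processing notes name limma, DESeq, edgeR and the mm9 genome, and no aligner or counter is named. The labels describe stranded poly-A libraries. Gene IDs were matched to GENCODE M21 (GRCm38) for symbols, positions and exon lengths (48058 of 48526); the E14 table exchanges its symbol and name columns, so matching was by ID. Every value was a whole number of reads within 0.1 read (100.0%), which gave depths of 2933026 to 9469214 reads.

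Differences were tested with limma 3.58.1 (R 4.3.3; trend and robust) on log2(value + 1) over all genes passing a filter (10 reads at median depth in a number of libraries equal to the smallest group, and 15 reads overall). Low genes' changes are understated on this scale. A single fit held every group at an age, with Benjamini-Hochberg adjustment at 0.05. The edgeR count test planned as an alternative was not run. Ages were compared as levels, after TMM scaling of the recovered reads together. The fit was tested on simulated data for the KO comparisons. It recovered 97% to 100% of 2-fold changes. Of 1.5-fold changes it recovered from 49% in P60 hippocampus to 90% in E14 cortex. False calls ran from 2 in P30 frontal cortex to 20 in P30 hippocampus. The simulation gave all genes the same dispersion, changed only genes with many reads and held no region differences. These shares therefore need not hold for the real tests. Near-identical copies were found with blastn 2.17.0. P-values measure the spread between libraries within groups. Libraries of different regions may come from the same animals, and the main fit does not pair them.

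Same-numbered KO and WT libraries deviated together in P60 amygdala (correlation 0.210 to 0.321 over 3 pairs) and most closely in P60 hippocampus (0.624 and 0.497), where 2 pairs are too few for the rule of 3 pairs over 0.1. Between regions the rule was met in P60 for KO amygdala and cortex, WT amygdala and cortex, and WT amygdala and hippocampus (0.103 to 0.214). No pair of replicates agreed within counting noise. Members, lists and the rule for named genes (called members by size of change per region comparison, the 5 largest and 5 smallest falls after E14, the paralogs and partners, and Rpsa, Rplp0, Rplp1, Rplp2, Rps6, Rpl5 and Rpl11) were chosen with earlier results of these data known. Rps14 and Rpl17 sequences were not used.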

Additional observations from a re-analysis of the deposited data

Results flagged for a closer look

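In groups of 4 or 5 libraries, 15 of 210 checks over 21 quantities had 1 library standing away from the others, where chance flags about 1 in 20. The summed level of all members was 5301 in WT P30 hippocampus replicate 1, with the others at 4677 to 4762. In E14 KO cortex, replicate 3 had 290 for Rps26 (others 187 to 212) and 140 for Rpl36 (others 93.7 to 107). The E14 offset described above was smallest without this replicate.

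In P30 amygdala, KO replicate 1 had 15.5 for Rpl22l1 (10.6 to 11.4), KO replicate 3 had 7.51 for Rps12 (the nearest at 14.8) and 41.4 for Rpl22 (44.4 to 44.6), KO replicate 4 had 119 for Rplp1 (127 to 128), and WT replicate 2 had 116 for Rplp1 (133 to 136). In P30 hippocampus, WT replicate 4 had 60.5 for Rplp0 (66.4 to 67.1), KO replicate 4 had 14.9 for Rpl7l1 (17.6 to 18.1) and KO replicate 3 had 74.4 for Rpl10 (81.7 to 83.1). In P30 frontal cortex, KO replicate 4 had 10.4 for Rpl23a (7.57 to 7.82). At P60, KO frontal cortex replicate 3 had 46.0 for Rplp0 (47.8 to 48.2), replicate 1 had 14.5 for Rps13 (16.8 to 17.1), and KO amygdala replicate 1 had 117 for Rpl3 (88.8 to 91.1).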

How the results depend on the processing

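The 7 KO comparisons and the tests between regions kept 0 calls under each alternative run (pseudocount 0.1, no filter, plain CPM, TMM, voom, sex as covariate, groups alone, each library left out: 0.0 to 0.0); voom was chosen after seeing the data in place of the edgeR test, which was not run. With the replicate block, KO comparisons gave 0 calls, amygdala over frontal cortex 58 at P30 and 58 at P60, hippocampus over frontal cortex 56 and 60, and amygdala against hippocampus 16 and 3; among the named genes it changed the call of Rplp0 at P60 and no other. Over the other settings that keep every library, amygdala over frontal cortex ranged from 49 to 60 at P30 and 41 to 60 at P60, hippocampus over frontal cortex from 53 to 57 and 59 to 63; leaving out a library gave 51 to 57, 53 to 60, 52 to 59 and 44 to 64. Amygdala against hippocampus had 13 to 16 calls at P30 with a library left out and 13 to 20 otherwise. At P60 its 2 calls became 1 without the filter, 4 with plain CPM, 9 with TMM, 9 with voom and 0 with the groups alone; leaving out a library gave 0 to 8 (0 without WT amygdala 1 or KO hippocampus 2, 1 without WT hippocampus 2 or 3, 4 without KO amygdala 2 or KO hippocampus 1, 8 without WT hippocampus 1). The cause was not tested. From E14 to P30 the median was -1.75 in WT and -1.76 in KO on deposited values and -1.76 and -1.75 with plain CPM, and -1.51 to -1.44 and -1.53 to -1.38 with a library left out. From P30 to P60, leaving out a library gave 0.15 to 0.26 (WT amygdala), 0.19 to 0.28 (KO amygdala), 0.24 to 0.28 (WT frontal cortex), 0.09 to 0.13 (KO frontal cortex), 0.20 to 0.31 (WT hippocampus) and 0.18 to 0.28 (KO hippocampus). With the libraries that stood apart left out together (chosen after seeing the data), the median over members for amygdala against hippocampus at P60 was -0.125. The P30 KO comparisons that held such a library had 0 calls. Of 730 values for 32 named region results, 83 lost the call and 0 reversed; they belong to Rps12, Rps2, Rps21, Rps15, Rps13, Rps28, Rplp0, Rpl4, Rpl23a and Rpl37a, with Rps12 at P60 lost for 10 of 14 libraries (adjusted p up to 0.115). Depth limits Rpl3l, Rpl10l and Rpl39l, which were not tested.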
